A study of Mus musculus with 15 samples.

Results

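The 9 genes described here are Gata1 and 8 partners of the GATA1 core complex: Zfpm1, Tal1, Lyl1, Tcf3, Lmo2, Ldb1, Gfi1b and Cbfa2t3. They were chosen by symbol, and each was read from a probe set that carries no other symbol, the brightest one over the 15 arrays where a gene had more than 1. All 9 were found among the 19933 genes measured this way. The arrays came from G1E cells, a mouse erythroid precursor line that lacks functional GATA1. Each line carried a GATA1 protein fused to an estrogen receptor domain, which holds the fusion inactive until estradiol is added. One residue was changed in GATA1(R216Q)-ER (named R216Q below) and GATA1(R216W)-ER (R216W), and another in GATA1(D218G)-ER (D218G) and GATA1(D218Y)-ER (D218Y), and the line they were set against carried unchanged GATA1-ER (WT). All 5 lines shared the loss of endogenous GATA1 and had received 100 nM estradiol for 24 hours, with 3 biological replicates each. Each mutation stands for 1 line here, so an effect of the mutation and one of the line cannot be told apart, and cells before estradiol were not analysed here.

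GATA1 is a zinc finger transcription factor that binds GATA motifs in DNA and drives red cell maturation. Its amino-terminal finger, where the changed residues lie, contacts FOG1, the cofactor encoded by Zfpm1, and also takes part in contacts with DNA and with the TAL1 complex. TAL1, or its close relative LYL1, pairs with an E protein such as the product of Tcf3 to bind E-box motifs, and the adaptors LMO2 and LDB1 join that pair to GATA1. GFI1B and ETO2, encoded by Cbfa2t3, are repressors that associate with GATA1 and with the TAL1 complex. In erythroid cells such complexes act on red cell genes and on the genes of several of these factors themselves.

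Since GATA1 binds GATA motifs, the promoters of the members were searched for them. RefSeq promoter sequences (GRCm38.p6, 250 bases before to 50 bases after a start site) were listed for 8 of the 9 members, 12 promoters in all. A GATA motif was taken as AGATAA or its variant TGATAA, or, with a final G, as AGATAG or its variant TGATAG, on either strand. It was present in 4 of the 12 promoters, 1 each of Tal1, Ldb1, Gfi1b and Cbfa2t3, and in 29.8% of all 32851 promoters of the same length. An E-box of the kind bound by TAL1 (CAGCTG or CAGATG, either strand) was present in 2 of the 12, of Tal1 and Cbfa2t3, and in 30.6% of all promoters. The promoters of Gfi1b, Tal1 and Cbfa2t3 are shown because these 3 genes hold a motif and were lower in at least 3 mutant lines, with the GATA motif in capitals. They lie at chr2:28621933-28622232 on the minus strand, chr4:115056176-115056475 on the plus strand and chr8:122699060-122699359 on the minus strand. In the Tal1 and Cbfa2t3 promoters the motif reads on the opposite strand to the gene, so the capitals show its reverse complement.
Gfi1b: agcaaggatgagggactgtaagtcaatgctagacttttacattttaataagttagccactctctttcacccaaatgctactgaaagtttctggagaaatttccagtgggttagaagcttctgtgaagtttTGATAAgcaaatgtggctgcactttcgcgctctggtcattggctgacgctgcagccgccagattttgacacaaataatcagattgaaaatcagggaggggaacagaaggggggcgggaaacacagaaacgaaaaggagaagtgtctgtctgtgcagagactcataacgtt
Tal1: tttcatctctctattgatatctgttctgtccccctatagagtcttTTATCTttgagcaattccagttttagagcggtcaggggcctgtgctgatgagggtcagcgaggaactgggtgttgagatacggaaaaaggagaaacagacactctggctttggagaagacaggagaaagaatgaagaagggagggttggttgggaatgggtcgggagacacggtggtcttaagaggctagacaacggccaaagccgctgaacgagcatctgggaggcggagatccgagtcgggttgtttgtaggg
Cbfa2t3: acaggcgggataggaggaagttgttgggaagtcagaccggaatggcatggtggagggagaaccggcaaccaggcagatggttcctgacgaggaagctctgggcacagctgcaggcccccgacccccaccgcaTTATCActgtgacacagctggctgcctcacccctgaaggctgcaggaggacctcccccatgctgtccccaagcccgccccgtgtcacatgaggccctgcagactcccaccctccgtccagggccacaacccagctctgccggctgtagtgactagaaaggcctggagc
These matches are letters in a window, and binding was not measured here. The 3 promoters were picked partly by the results, and a match did not go with a fall throughout. Ldb1, with 2 GATA motifs in 1 promoter, was higher in 2 mutants and lower in 1. Gata1 was lower in 3 mutants and its promoter had 0 matches.

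Values are log2 RMA expression values, which ran from 2.89 to 13.58 over all arrays, so that 1 unit is a 2-fold difference on this scale. Array medians lay between 6.24 and 6.41. Replicate 3 of D218G stood apart, with a median gap of 0.11 to the mean of the other arrays of its line, against 0.04 to 0.08 for the other 14 arrays. Erythroid markers fitted the labelled cell type: 12 of 13 measured lay above the median gene in R216Q, R216W, D218G and WT, and 11 of 13 in D218Y. Mean marker levels on the log2 scale lay at 9.76 to 9.81 in R216Q, 9.97 to 10.04 in R216W, 9.89 to 9.94 in D218G and 8.67 to 8.72 in D218Y, against 10.37 to 10.39 in WT. Granulocyte and monocyte markers (0 of 11) and lymphoid markers (0 of 7) lay above the median gene in no line, whereas stromal markers did so for 3 of 7 in every line and megakaryocyte markers for 3 of 7 in R216Q, R216W and WT and 4 of 7 in D218G and D218Y. Of the 7 megakaryocyte markers Gp9 (-1.93), Itgb3 (-1.91) and Itga2b (-0.38) fell and Gp5 (1.08) rose in D218Y. Such calls were not confined to D218Y. Gp9 also fell in R216Q (-1.61), D218G (-1.05) and R216W (-0.53), and Itgb3 in D218G (-0.79) and R216Q (-0.45). Gp5 also rose in D218G (0.24) and fell in R216W (-0.39). Mast cell markers lay above the median gene in D218Y alone (2 of 10, Tpsab1 and Ms4a2). The mean level of all 10 there was 5.18 to 5.24, against 4.72 to 4.74 in WT. Of the 10 mast cell markers 3 rose in D218Y (Tpsab1 by 3.06, Ms4a2 by 2.46 and Cpa3 by 0.65) and 3 fell. The part of the cells or genes behind these markers in the D218Y results was not tested. In these bulk samples fewer cells of a type and less RNA per cell cannot be told apart.

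In limma's F test for any difference between the 5 line means, with Benjamini-Hochberg adjustment over all genes, all 9 members passed (largest adjusted p = 1.68e-04, for Zfpm1), as did 41.9% of the 19933 genes. The members were well expressed, at or above the 76.4th percentile of genes in every line. The differences were mostly small: the range of the 5 line means was under 0.6 on the log2 scale for 7 members, and reached 0.90 for Tal1 and 1.09 for Lyl1. Ranges larger than these were found in 5.66% of genes for Tal1 and 3.75% for Lyl1, against 31.57% for Gata1. No member changed 2-fold or more in any mutant against WT, where 0.502% of all genes were called with such a change in R216Q, 0.452% in R216W, 0.221% in D218G and 3.57% in D218Y.

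**Figure D1:**
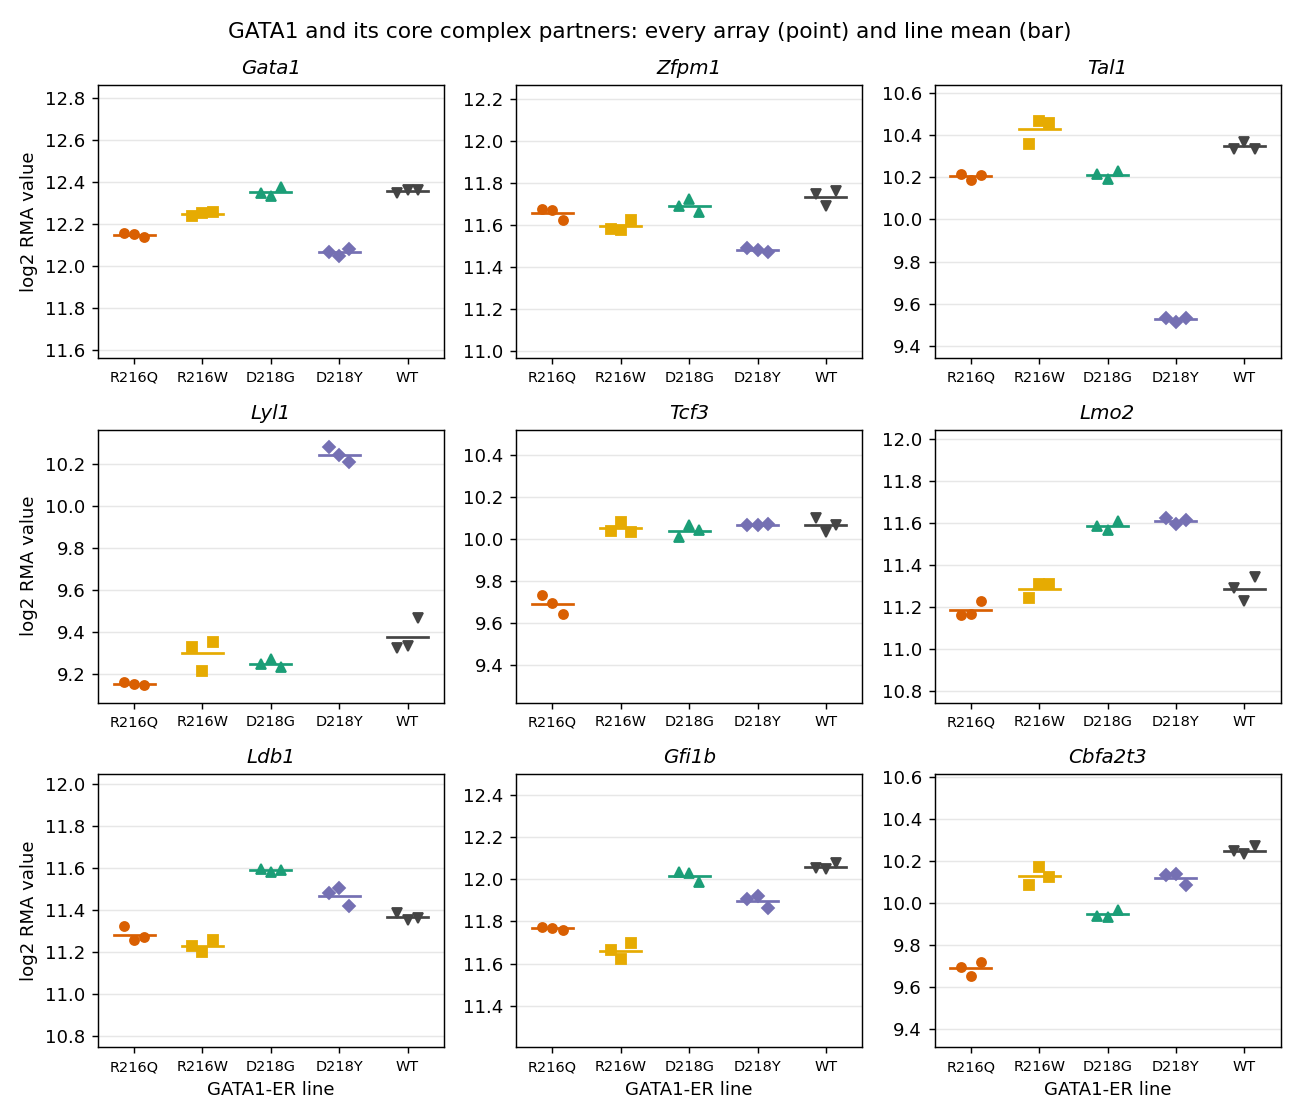
Log2 RMA value of each member (vertical axis, spanning 1.3 units in every panel) in R216Q, R216W, D218G, D218Y and WT. Points are the 3 arrays of a line and bars are line means; Tal1 is lowest and Lyl1 highest in D218Y, and Tcf3 is lowest in R216Q.

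Gata1 transcript was lower in R216Q and D218Y cells, slightly lower in R216W cells and within the replicate error of WT in D218G cells. The 3 arrays read 12.16, 12.15 and 12.14 in R216Q, 12.24, 12.25 and 12.26 in R216W, 12.35, 12.33 and 12.38 in D218G and 12.07, 12.05 and 12.08 in D218Y, against 12.35, 12.36 and 12.36 in WT. Only the D218G arrays overlapped WT. The D218Y level was 0.817 of that in WT (log2 fold change -0.29 ± 0.03 SE, n = 3 per line, limma adjusted p = 1.12e-06) and the R216Q level 0.866 of it (-0.21 ± 0.03, adjusted p = 1.08e-04). In R216W the fold change was -0.11 ± 0.03 (adjusted p = 0.022), a call lost when any of the 6 arrays was left out. In D218G it was -0.00 (95% interval -0.07 to 0.06, adjusted p = 0.961). From lowest to highest the order was D218Y, R216Q, R216W, D218G and WT, and all neighbours differed (adjusted p from 0.0209 to 0.0464) except D218G and WT. The calls for R216W against R216Q and for D218Y against R216Q each ended when any array of either line was left out, and the D218G against R216W call ended without replicate 1 of R216W or replicate 1 or 3 of D218G. With each array centred on its median all 3 of these calls ended, and D218Y against R216Q turned to 0.01 (adjusted p = 0.966). Whether this probe set reads the fusion, the disrupted allele or both was not tested.

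Zfpm1, the gene of FOG1, was lower in D218Y and R216W cells. Arrays read 11.67, 11.67 and 11.63 in R216Q, 11.58, 11.57 and 11.63 in R216W, 11.69, 11.73 and 11.66 in D218G and 11.49, 11.48 and 11.47 in D218Y, against 11.75, 11.69 and 11.76 in WT. The D218G arrays overlapped WT and those of the other mutants lay below it. Zfpm1 fell by 0.25 ± 0.03 on the log2 scale in D218Y (adjusted p = 2.36e-05), to 0.840 of the WT level, and by 0.14 ± 0.03 in R216W (adjusted p = 0.0112). The R216W call was lost when each array was centred on its median (adjusted p up to 0.248 over the alternatives). In R216Q the fold change was -0.07 (95% interval -0.15 to 0.00, adjusted p = 0.178) and in D218G -0.04 (-0.11 to 0.03, adjusted p = 0.545). D218Y was also lower than each of R216Q, R216W and D218G (adjusted p from 1.88e-04 to 0.0183), and all 3 of these calls ended with median centring. The call against R216W also ended without replicate 3 of either line.

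The helix-loop-helix genes Tal1 and Lyl1 went in opposite directions in D218Y cells. Tal1 arrays read 10.22, 10.19 and 10.21 in R216Q, 10.36, 10.47 and 10.46 in R216W, 10.21, 10.19 and 10.23 in D218G and 9.53, 9.51 and 9.53 in D218Y, against 10.34, 10.37 and 10.34 in WT. D218Y lay far below every other line, and R216W was the only line above WT in mean, with overlapping arrays. Tal1 fell by 0.82 ± 0.04 in D218Y (SE, n = 3 per line, adjusted p = 7.45e-11), to 0.565 of the WT level. It fell by 0.14 ± 0.04 in R216Q (adjusted p = 0.0086) and by 0.14 ± 0.04 in D218G (adjusted p = 0.0145), and both calls were lost when arrays were centred on their medians. Leaving out replicate 2 of D218G or of WT ended the D218G call too. In R216W the fold change was 0.08 ± 0.04 (adjusted p = 0.164). Tal1 was lower in D218Y than in D218G (-0.69 ± 0.04, adjusted p = 1.28e-09), and higher in R216W than in R216Q (0.22 ± 0.04, adjusted p = 3.48e-04).

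Lyl1 arrays read 9.16, 9.15 and 9.15 in R216Q, 9.33, 9.22 and 9.36 in R216W, 9.25, 9.27 and 9.23 in D218G and 10.28, 10.24 and 10.21 in D218Y, against 9.32, 9.33 and 9.47 in WT. D218Y stood above all other arrays, R216Q and D218G lay below WT, and R216W overlapped it. Lyl1 rose by 0.87 ± 0.05 in D218Y (adjusted p = 7.48e-10), a level 1.83-fold that of WT, and fell by 0.22 ± 0.05 in R216Q (adjusted p = 0.00244). In D218G the fold change was -0.12 ± 0.05 (adjusted p = 0.0861) and in R216W -0.07 ± 0.05 (adjusted p = 0.373). Lyl1 was higher in D218Y than in D218G by 0.99 ± 0.05 (adjusted p = 4.39e-10). Among R216Q, D218G and R216W, which followed each other in the order of levels, no neighbours differed beyond the replicate error (adjusted p = 0.247 and 0.583). The ends of that range did (R216W against R216Q, 0.15 ± 0.05, adjusted p = 0.0426), a call lost without any array other than replicate 2 of R216W.

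**Figure D2:**
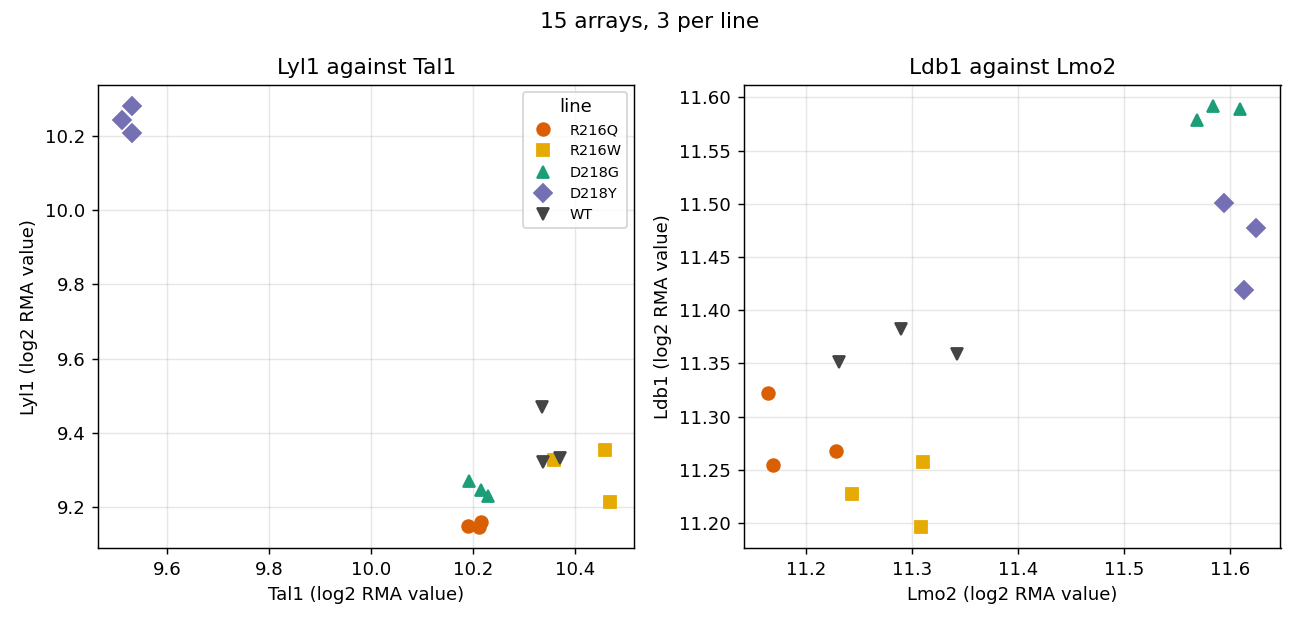
Log2 RMA values of Lyl1 against Tal1 (left) and of Ldb1 against Lmo2 (right), 1 point per array, with the line given by colour and shape. The D218Y arrays lie apart at a Tal1 value of 9.51 to 9.53 and a Lyl1 value of 10.21 to 10.28, and the D218G and D218Y arrays lie at the upper right in the second panel.

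Tcf3, which encodes the E proteins E12 and E47, was lower in R216Q cells and close to WT elsewhere. Arrays read 9.73, 9.70 and 9.64 in R216Q, 10.04, 10.08 and 10.04 in R216W, 10.01, 10.07 and 10.04 in D218G and 10.07, 10.07 and 10.07 in D218Y, against 10.10, 10.04 and 10.07 in WT. The R216Q arrays lay below all 12 others, and the other mutants overlapped WT. Tcf3 fell by 0.38 ± 0.04 in R216Q (adjusted p = 1.57e-06), to 0.771 of the WT level. Fold changes against WT were -0.02 in R216W (95% interval -0.09 to 0.06), -0.03 in D218G (-0.10 to 0.05) and 0.00 in D218Y (-0.07 to 0.08), with adjusted p from 0.715 to 0.98. The difference was also present between mutants: Tcf3 was higher than in R216Q by 0.36 ± 0.04 in R216W (adjusted p = 3.09e-06), by 0.35 ± 0.04 in D218G (adjusted p = 6.57e-06) and by 0.38 ± 0.04 in D218Y (adjusted p = 7.79e-07).

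The adaptor genes Lmo2 and Ldb1 were higher in the D218 lines than in WT and in the R216 lines. LMO2 bridges the helix-loop-helix pair and GATA1, and LDB1 holds LMO2 and can self-associate to bring distant sites together. Lmo2 arrays read 11.16, 11.17 and 11.23 in R216Q, 11.24, 11.31 and 11.31 in R216W, 11.58, 11.57 and 11.61 in D218G and 11.63, 11.60 and 11.61 in D218Y, against 11.29, 11.23 and 11.34 in WT. Arrays of both D218 lines lay above all others. Lmo2 rose by 0.30 ± 0.04 in D218G (adjusted p = 4.43e-05) and by 0.32 ± 0.04 in D218Y (adjusted p = 4.24e-06), levels 1.23-fold and 1.25-fold that of WT. The D218 lines did not differ from each other beyond the replicate error (0.02, 95% interval -0.06 to 0.11, adjusted p = 0.663). Fold changes were -0.10 in R216Q (-0.18 to -0.02, adjusted p = 0.0781) and -0.00 in R216W (-0.08 to 0.08, adjusted p = 0.993). Each D218 line was higher than each R216 line, by 0.30 to 0.42 (adjusted p from 4.98e-07 to 2.41e-05).

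Ldb1 arrays read 11.32, 11.25 and 11.27 in R216Q, 11.23, 11.20 and 11.26 in R216W, 11.59, 11.58 and 11.59 in D218G and 11.48, 11.50 and 11.42 in D218Y, against 11.38, 11.35 and 11.36 in WT. Arrays of both D218 lines lay above WT and arrays of both R216 lines below it. Ldb1 rose by 0.22 ± 0.03 in D218G (adjusted p = 3.06e-04) and by 0.10 ± 0.03 in D218Y (adjusted p = 0.029), and fell by 0.14 ± 0.03 in R216W (adjusted p = 0.0124). The R216Q value was -0.08 ± 0.03 (adjusted p = 0.128). The D218Y call was lost without replicate 2 or 3 of WT or replicate 1 or 2 of D218Y (adjusted p up to 0.106), and the R216W call without replicate 1 of WT or replicate 2 of R216W or with median centring (adjusted p up to 0.32). Ldb1 was higher in each D218 line than in each R216 line, by 0.18 for D218Y against R216Q (adjusted p = 7.53e-04) to 0.36 for D218G against R216W (adjusted p = 1.7e-06). Ldb1 was lower in D218Y than in D218G (-0.12 ± 0.03, adjusted p = 0.0143), a call lost without replicate 3 of D218Y and with median centring.

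The repressor gene Gfi1b was lower in both R216 lines. Arrays read 11.77, 11.77 and 11.76 in R216Q, 11.67, 11.62 and 11.70 in R216W, 12.04, 12.03 and 11.99 in D218G and 11.91, 11.92 and 11.86 in D218Y, against 12.06, 12.05 and 12.08 in WT. The 5 lines did not overlap on this probe set, whose order from lowest to highest was R216W, R216Q, D218Y, D218G and WT. Gfi1b fell by 0.40 ± 0.03 in R216W (adjusted p = 7.17e-07), to 0.758 of the WT level, by 0.29 ± 0.03 in R216Q (adjusted p = 1.07e-05) and by 0.16 ± 0.03 in D218Y (adjusted p = 9.03e-04). The D218Y call was lost with median centring. In D218G the fold change was -0.04 (95% interval -0.12 to 0.03, adjusted p = 0.471). Each D218 line was higher than each R216 line, by 0.13 for D218Y against R216Q (adjusted p = 0.0076) to 0.36 for D218G against R216W (adjusted p = 1.24e-06). R216W was lower than R216Q by limma (-0.11 ± 0.03, adjusted p = 0.0428), but leaving out any array other than replicate 3 of R216W ended that call.

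Cbfa2t3, the gene of the corepressor ETO2, was lower in all 4 mutants. Arrays read 9.69, 9.65 and 9.72 in R216Q, 10.08, 10.17 and 10.12 in R216W, 9.94, 9.93 and 9.96 in D218G and 10.13, 10.14 and 10.08 in D218Y, against 10.24, 10.23 and 10.27 in WT. Every mutant array lay below every WT array. Cbfa2t3 fell by 0.56 ± 0.04 in R216Q (adjusted p = 2.8e-08), to 0.678 of the WT level, by 0.30 ± 0.04 in D218G (adjusted p = 2.01e-05), by 0.13 ± 0.04 in D218Y (adjusted p = 0.00728) and by 0.12 ± 0.04 in R216W (adjusted p = 0.0253). The R216W call was lost without replicate 1 or 3 of either line, and the D218Y and R216W calls with median centring. It was the one member called lower in all 4 mutants, where 1.97% of all genes were. A dimmer probe set of the gene, with a mean of 8.50 against 10.02 for the one used, was lower in all 4 as well. By limma over the 21780 probe sets with 1 symbol its fold changes were -0.60 ± 0.04 in R216Q, -0.14 ± 0.04 in R216W (adjusted p = 0.0493), -0.37 ± 0.04 in D218G and -0.43 ± 0.04 in D218Y. The probe sets disagreed on D218Y, where the second fell further. For D218Y against D218G the probe set used gave 0.17 ± 0.03 (adjusted p = 0.00119) and the second -0.06 ± 0.04 (adjusted p = 0.343). D218Y against R216W also depended on the probe set. The one used gave -0.01 (limma adjusted p = 0.886), and the mean of the gene's probe sets -0.15 (adjusted p = 0.004).

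**Figure D3:**
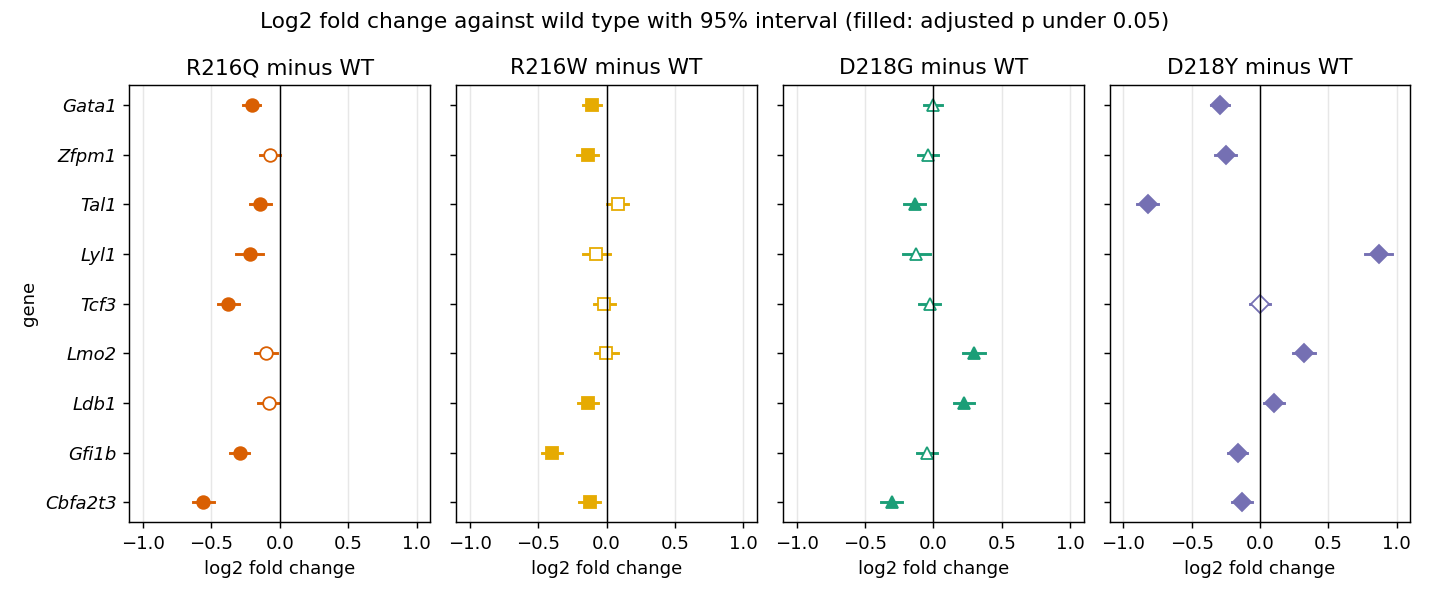
Log2 fold change of each member in R216Q, R216W, D218G and D218Y minus WT (horizontal axis), with limma's 95% interval as a line. Filled symbols passed an adjusted p under 0.05; in R216Q and R216W all filled symbols lie below 0, and in D218Y they lie on both sides, from -0.82 for Tal1 to 0.87 for Lyl1.

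Set side by side, the lines differed in how many members passed and on which side. The 4 comparisons share the WT arrays. Erythroid markers fell beside them, 10 of 13 measured in R216Q, 9 in R216W, 9 in D218G and 12 in D218Y, with none higher, and their part in the members' results was not tested. The members are well expressed, and genes above the median intensity were called more often than all genes were. Fitting those brighter genes alone called 4639 in R216Q (4283 of all genes), 3812 in R216W (3308) and 4054 in D218G (3601). In D218Y it called 7244 of these fewer genes (8857 of all). The percentages of all genes given with the counts below are thus lower than those among brighter genes. Whether members passed more often than equally bright genes was not tested. In R216Q 6 of 9 members fell and none rose (Gata1, Tal1, Gfi1b, Cbfa2t3, Lyl1 and Tcf3), with 21.5% of all genes called, 11.8% higher and 9.65% lower. The median log2 fold change of all 9 was -0.21, against -0.01 over all genes. All 9 members had R216Q arrays below the WT arrays, as 15.1% of all genes did. In R216W 5 of 9 fell and none rose (Gata1, Zfpm1, Ldb1, Gfi1b and Cbfa2t3), with 16.6% of all genes called, 9.36% higher and 7.23% lower, and the median was -0.11 against -0.02. This count rested on small changes: it was 2 without replicate 1 of WT, 3 without replicate 3 of WT or replicate 2 or 3 of R216W, 4 without replicate 2 of WT, and 1, Gfi1b, with median centring or when only the arrays of both lines were fitted. Without replicate 1 of R216W it was 4, of which 3 were lower and Tal1 was higher (0.12, adjusted p = 0.0403). Tal1 also passed with array weights (0.09, adjusted p = 0.0401).

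In D218G 2 members rose (Lmo2 and Ldb1) and 2 fell (Tal1 and Cbfa2t3), with 18.1% of all genes called, 10.3% higher and 7.77% lower, and the median was -0.04 against -0.02. The same 4 genes passed without replicate 3 of D218G, with fold changes of 0.29 for Lmo2, 0.22 for Ldb1, -0.14 for Tal1 and -0.31 for Cbfa2t3. In D218Y 3 rose (Lmo2, Ldb1 and Lyl1) and 5 fell (Gata1, Zfpm1, Tal1, Gfi1b and Cbfa2t3), leaving Tcf3 not called, with 44.4% of all genes called, 20.3% higher and 24.2% lower. The median was -0.13 against -0.07 over all genes, and the median absolute change 0.25 against 0.15.

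The mutants of 1 residue were also compared directly. R216W against R216Q gave 6 of 9 members (16.9% of all genes called, 8.25% higher and 8.65% lower), with Gata1, Tal1, Cbfa2t3, Lyl1 and Tcf3 higher and Gfi1b lower in R216W. Of these Tal1, Cbfa2t3 (0.44 ± 0.04, adjusted p = 4.73e-07) and Tcf3 kept their calls under every alternative run. The count was 3 without any 1 array of R216Q or without replicate 1 of R216W, and 4 without replicate 2 or 3 of R216W. D218Y against D218G gave 7 of 9 members (33% of all genes called, 17.4% higher and 15.6% lower), with Cbfa2t3 and Lyl1 higher and Gata1, Zfpm1, Tal1, Ldb1 and Gfi1b lower in D218Y. Gata1 was lower by 0.29 ± 0.03 in this comparison (adjusted p = 2.2e-06) and Zfpm1 by 0.21 ± 0.03 (adjusted p = 1.88e-04). The count was 5 without replicate 3 of D218Y, where Ldb1 and Gfi1b lost their calls, and 4 with median centring. The Cbfa2t3 call ended when the gene's probe sets were averaged (0.06, limma adjusted p = 0.261). Without replicate 3 of D218G the same count of 7 members passed, 2 higher and 5 lower, but 3945 genes were called higher and 5231 lower, against 3476 higher and 3107 lower with it. Between residues, D218Y against R216Q gave all 9 members (31.8% of all genes called, 16.5% higher and 15.4% lower), or 8 without Gata1 when any array of either line was left out, and D218Y against R216W gave 7 (36.3% called, 18.8% higher and 17.5% lower). D218G against R216Q gave 6, all higher in D218G (13.4% of all genes called, 6.87% higher and 6.52% lower), and D218G against R216W also gave 6 (22% called, 11.3% higher and 10.7% lower), 4 of them higher.

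Over the 10 pairs of lines, Gata1, Gfi1b and Cbfa2t3 differed in 9, Tal1 and Ldb1 in 8, Lmo2 and Lyl1 in 6, Zfpm1 in 5 and Tcf3 in 4. These counts include calls that were lost under some alternatives, as given above. For a single pair the share of all genes called ran from 13.4% (D218G against R216Q) to 44.4% (D218Y against WT). The number of pairs in which other genes differed was not counted. Among 9457 brighter genes with a settled symbol, the profile over 15 arrays most like that of Gata1 was that of Tpcn1, an endolysosomal ion channel gene (Pearson r = 0.993, Spearman rho = 0.939). For Tal1 it was Xk, the gene of a red cell surface protein (r = 0.993, rho = 0.90), followed by the transcription factor gene Klf3 (r = 0.993, rho = 0.843) and Ncoa4, the ferritin autophagy receptor (r = 0.992, rho = 0.911). For Lyl1 it was Ndst2, a heparan sulfate enzyme gene (r = 0.988, rho = 0.861), for Zfpm1 Mvb12b (r = 0.977, rho = 0.957), for Lmo2 Plxna1 (r = 0.977, rho = 0.861), for Ldb1 Fhdc1 (r = 0.977, rho = 0.957), for Gfi1b Stk16 (r = 0.954, rho = 0.954), for Cbfa2t3 Man2b1 (r = 0.954, rho = 0.936) and for Tcf3 Stk24 (r = 0.948, rho = 0.693). By rank the next genes for Tcf3 were less alike, Ripor1 at r = 0.947 and rho = 0.481 and Tgm2 at r = 0.936 and rho = 0.527. Such values describe 5 lines of 3 arrays each rather than 15 unrelated samples. A correlation above 0.9 was reached by 523 of these genes for Tal1 and by 241 for Gata1, but by 8 for Cbfa2t3 and 6 for Tcf3.

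Other genes linked to these complexes were read from lists of adaptors and relatives, of partners of FOG1 in the NuRD chromatin remodelling complex, of partners of GFI1B in the LSD1-CoREST demethylase complex, and of coactivators and readers of acetylated lysine. Not all genes of the first list are parts of the complexes: it also holds inhibitors and antagonists such as Id1 and Spi1. Ssbp1, listed by symbol and not taken here as an LDB1 partner, rose by 0.30 in R216Q, 0.17 in R216W, 0.23 in D218G and 0.78 in D218Y. Over all genes 11.8% were called higher and 9.65% lower in R216Q (21.5% in all), 9.36% and 7.23% in R216W (16.6%), 10.3% and 7.77% in D218G (18.1%) and 20.3% and 24.2% in D218Y (44.4%), and their medians were -0.01, -0.02, -0.02 and -0.07 in the same order. Of 28 adaptors and relatives 4 rose and 8 fell in R216Q (median log2 fold change -0.04), 6 rose and 4 fell in R216W (-0.00), 4 rose and 6 fell in D218G (-0.02) and 9 rose and 9 fell in D218Y (-0.08). Gata2, the progenitor paralogue of Gata1, rose by 2.85 ± 0.04 in D218Y, 1.26 ± 0.04 in R216W and 1.17 ± 0.04 in R216Q, and fell by 0.29 ± 0.04 in D218G (adjusted p = 1.79e-04). Ssbp2, whose product stabilises LDB1, fell by 1.47 ± 0.04 in D218Y, 0.67 ± 0.04 in D218G and 0.58 ± 0.04 in R216Q, and was at 0.09 ± 0.04 in R216W (adjusted p = 0.138). Runx1, a partner of the complex in progenitors and megakaryocytes, fell by 0.95 ± 0.04 in D218Y, 0.60 ± 0.04 in D218G and 0.19 ± 0.04 in R216Q, and rose by 0.32 ± 0.04 in R216W (adjusted p = 1.35e-05). Cbfb, the subunit that pairs with RUNX1, rose by 1.32 ± 0.06 in D218Y, 0.99 ± 0.06 in R216W and 0.59 ± 0.06 in R216Q.

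Id1, an inhibitor that sequesters E proteins, rose by 0.97 ± 0.05 in D218Y and 0.37 ± 0.05 in D218G and fell by 1.02 ± 0.05 in R216W and 0.51 ± 0.05 in R216Q. Its direction was thus the same in both lines of a residue. Ldb1 rose in both D218 lines and fell in R216W, but its D218Y and R216W calls were lost under some alternatives. In R216Q Ldb1 was not called. Whether the residue or the line lies behind these directions was not tested. Spi1, the gene of the GATA1 antagonist PU.1, rose by 0.78 ± 0.10 in D218Y and fell by 0.93 ± 0.10 in R216Q and 0.78 ± 0.10 in R216W and in D218G. Cbfa2t2, a paralogue of Cbfa2t3, rose by 0.63 in D218Y, 0.50 in R216W and 0.30 in R216Q, where Cbfa2t3 itself fell. In D218G, where Cbfa2t3 fell too, Cbfa2t2 was at 0.04 ± 0.07 (adjusted p = 0.793). The R216Q call of Cbfa2t2 was lost when the gene's probe sets were averaged.

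Set beside the same 21.5%, 16.6%, 18.1% and 44.4% of all genes called, the chromatin lists were as follows. Of 13 NuRD genes 4 rose and 3 fell in R216Q, 4 rose and none fell in R216W, 4 rose and 2 fell in D218G and 8 rose and 3 fell in D218Y, with medians of -0.01 in R216Q, 0.03 in R216W, 0.06 in D218G and 0.15 in D218Y. Mbd3 (0.51 ± 0.04) and the histone chaperone gene Rbbp7 (0.48 ± 0.04) rose most in D218Y, and Chd3, a remodelling ATPase gene, rose most in R216W (0.44 ± 0.04). Chd3 also passed in D218Y (0.12 ± 0.04, adjusted p = 0.0358), but its direction turned under quantile normalization (-0.06, adjusted p = 0.335) and the call ended without any D218Y array or without replicate 1 or 2 of WT. Of 9 measured LSD1-CoREST genes 2 rose and 2 fell in R216Q, 3 rose and 1 fell in R216W and 4 rose and 2 fell in D218Y. In D218G 1 rose and 1 fell, which is near the share over all genes in that line. The medians were -0.04 in R216Q, 0.02 in R216W, -0.02 in D218G and 0.08 in D218Y. Rcor2, a CoREST paralogue gene, rose by 1.38 ± 0.08 in D218Y and Gse1 fell by 0.69 ± 0.04, whereas Ehmt2, a histone methyltransferase gene, rose most in R216W (0.69 ± 0.05). Of 15 coactivators and readers 4 rose and 4 fell in R216Q, 4 rose and 1 fell in R216W and in D218G, and 8 rose and 4 fell in D218Y, with medians of -0.03 in R216Q, 0.01 in R216W, 0.06 in D218G and 0.16 in D218Y. The arginine methyltransferase gene Prmt1 and the acetyltransferase gene Kat2a each rose by 1.06 in D218Y, while the acetyltransferase genes Kat2b and Crebbp fell by 0.67 and 0.55. Brd3, a reader of acetylated GATA1, fell by 0.55 ± 0.04 in R216Q, 0.30 ± 0.04 in D218Y and 0.29 ± 0.04 in R216W.

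**Figure D4:**
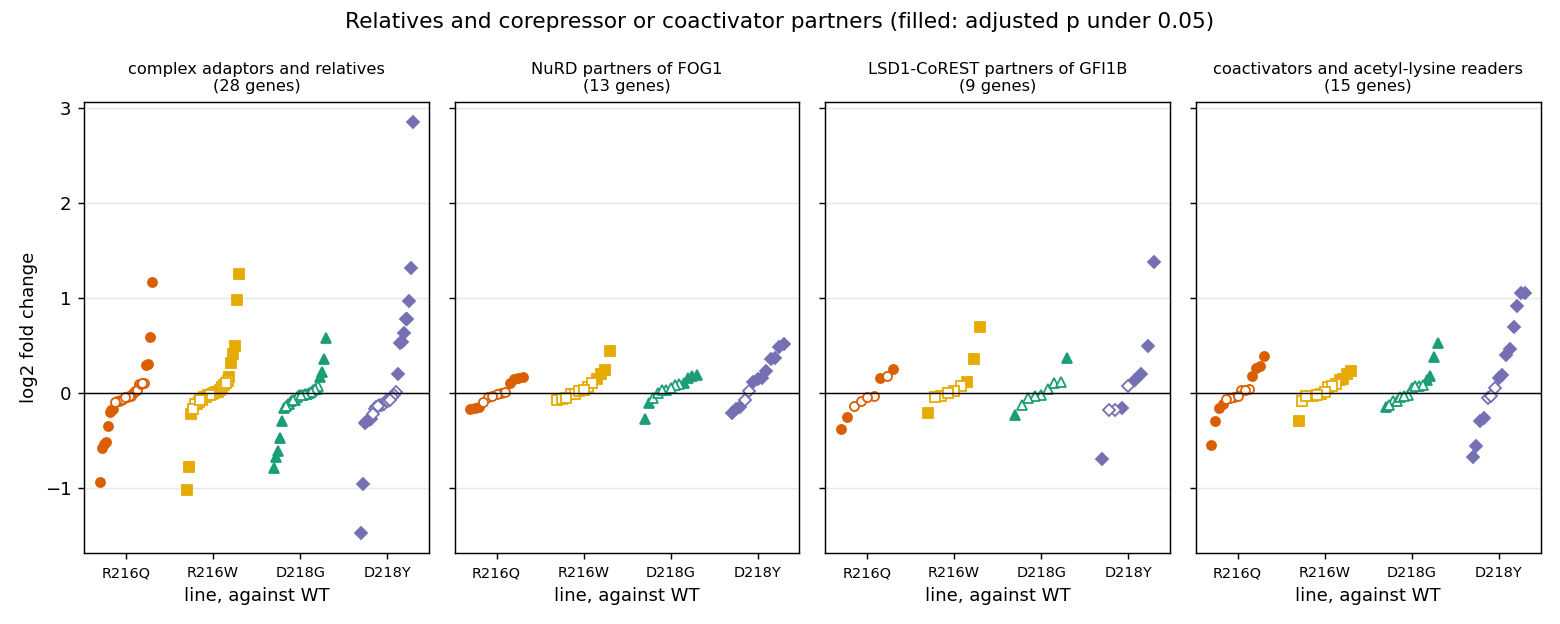
Log2 fold change against WT (vertical axis) of the measured genes of 4 lists in R216Q, R216W, D218G and D218Y, 1 symbol per gene, sorted by value within a line. Filled symbols passed an adjusted p under 0.05; the highest point is Gata2 in D218Y (2.85) and the lowest Ssbp2 in D218Y (-1.47).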

How the data were processed

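Total RNA of 15 cultures was measured on Affymetrix mouse arrays. Per the submitters' processing notes, the authors made the deposited log2 values using Partek 6.6 and RMA, a method that subtracts background, equalises the arrays by quantiles and fits 1 value per probe set. Other settings were not stated in the sources at hand. RMA compresses differences of very bright and very dim genes. Groups and replicate numbers came from the sample titles.

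The deposited log2 values were used unchanged. Of 28350 probe sets 21780 had 1 symbol in the platform annotation, and keeping the one with the highest mean per gene gave 19933 genes. Cbfa2t3 had 2 such probe sets and the other members 1. A linear model of all 15 arrays, with a mean for each line, gave 10 two-sided contrasts (limma 3.58.1, lmFit and eBayes, R 4.3.3). A gene was called below an adjusted p of 0.05, by Benjamini-Hochberg over the genes of its contrast. Errors are limma's moderated SE, intervals are at 95%, and rose and fell are used of calls alone. The text names all members, the genes most correlated with each, and genes of the fixed lists by size of change. The fit was tested on simulated data. Array number limits the precision, and a p-value reflects only how far these cultures varied. The members and lists were chosen with earlier results of these data known. Replicate numbers did not pair the arrays: deviations from the line means of arrays with the same number correlated at -0.51 to 0.41, with 3 of 30 pairs over 0.1. For arrays with different numbers the range was -0.408 to 0.535, highest for replicate 2 of WT with replicate 3 of D218G. Some arrays of different lines thus shared deviations. The model had no term for these, and their source was not tested.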

Additional observations from a re-analysis of the deposited data

How the results depend on the processing

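Of 36 member results against WT, 23 were called, of which 14 kept their call under all alternatives run, 9 lost it under at least 1 and none turned in direction; of the 13 not called, 5 passed under at least 1. The cause of each change below was not tested. Centring each array on its median left 2098 genes called for R216W against WT (3308 as reported), 2358 for D218G against WT (3601), 2037 for R216W against R216Q (3369) and 1609 for D218G against R216Q (2668), with 1 member for R216W against WT, 3 for R216W against R216Q and 4 for D218Y against D218G. It also moved the share of calls that were higher to 66.7% for R216W against WT (56.4% as reported), 66.6% for D218Y against WT (45.6%), 69.9% for D218Y against D218G (52.8%), 75.8% for D218Y against R216Q (51.7%) and 65.9% for D218Y against R216W (51.8%). Fitting only the arrays of both lines left 1 member for R216W against WT, 3 for R216W against R216Q, and 2106 genes for D218G against WT and 1541 for D218G against R216Q. Array weights called 7357 genes for R216Q against WT (4283), 5403 for R216W against WT, 5397 for R216W against R216Q and 9935 for D218Y against R216Q (6343), where 41.2% were higher. An adjusted p under 0.01 left 1 member for R216W against WT and 3 for R216W against R216Q.

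The replicate numbers did not pair the arrays (2 of 15 correlated best with an array of their own number). With the number as a replicate block, members called were 6 for R216Q, 5 for R216W, 4 for D218G and 8 for D218Y against WT, 7 for D218Y against D218G, 8 for D218Y against R216Q, where the Gata1 call ended (adjusted p = 0.0741), and 3 for R216W against R216Q.

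Without 1 array at a time, members called ran from 6 to 7 for R216Q, 2 to 4 for R216W, 3 to 4 for D218G and 7 to 8 for D218Y against WT, 3 to 4 for R216W against R216Q, 5 to 7 for D218Y against D218G, 5 to 6 for D218G against R216W and 6 to 7 for D218Y against R216W, and were 8 each time for D218Y against R216Q, 6 for D218G against R216Q and 9 for the F test. Genes called without 1 array stayed within 1.5 times the count as reported in all 10 comparisons, with the widest range for D218Y against D218G, 5542 to 9176 (6583 as reported); without replicate 3 of D218G, 43% of its calls were higher (52.8% as reported).

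Signs turned for 9 member results, with adjusted p of 0.53 or more where turned; 8 of them were not called as reported. Turned values were, for Lmo2 in R216W against WT, 0.0154 (quantile), 0.0269 (centring), 0.0264 and 0.0211 (1 array left out, range -0.0291 to 0.0264); for Gata1 in D218G against WT, 0.0167, 0.0203 and 0.0063 (range with 1 array left out -0.0158 to 0.0063); for Tcf3 in D218Y against WT, -0.0059, -0.0328, -0.0194, -0.0141 and -1e-04 (range -0.0141 to 0.0173); and for Tcf3 in R216W against WT, 0.0126 and 8e-04 (range -0.0306 to 8e-04). Between mutants they were, for Tal1 in D218G against R216Q, -0.0024, -0.0094, -0.0013 and -0.0018 (range -0.0018 to 0.0168); for Tcf3 in D218Y against R216W, -0.0126; for Tcf3 in D218G against R216W, 0.0073, 0.0028 and 0.0024 (range -0.025 to 0.0028); for Cbfa2t3 in D218Y against R216W, 0.0582, 0.0145 and 0.0084 (range -0.029 to 0.0145); and for Gata1 in D218Y against R216Q, called as reported (-0.08, adjusted p = 0.0464), 0.0052 with centring. Of 194 called results of list genes 129 kept their call throughout and 1 turned, Chd3 in D218Y against WT (-0.0563 under quantile normalization).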
